A study of Mus musculus with 6 samples.

Results

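The phosphoinositide and PI3K regulators examined here were Pik3r1, Pik3cd, Inpp5d, Mtmr2 and Sgk3, and they were measured by Argonaute (Ago) HITS-CLIP in mouse bone-marrow-derived macrophages. In HITS-CLIP, RNA cross-linked to the miRNA-binding Ago proteins is immunoprecipitated and sequenced, and the places where its reads pile up are called footprints. A footprint was assigned to one of these genes when it overlapped the gene on the gene's own strand in the GENCODE vM1 annotation of mouse build mm9. This gave 10 of the 6270 footprints of the table, on 4 of the 5 genes. Sgk3 had 4 footprints, Pik3r1 had 3, Inpp5d had 2, Mtmr2 had 1 and Pik3cd had 0. No footprint overlapped a second gene on its strand.

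The APOBEC1 KO group was made up of 3 libraries from APOBEC1-deficient C57BL/6 mice, and the WT group of 3 libraries from their C57BL/6 wild-type littermates. All mice were 6 to 12 weeks old. Marrow cells of both groups were grown in medium with M-CSF (20 ng/mL, later replaced in part with medium at 40 ng/mL) and matured for 7 days, and both were precipitated with the Ago antibody 2A8. APOBEC1 is a cytidine deaminase that turns C into U in mRNA, often in 3′ UTRs. The labels name an inherited deficiency without naming the deleted part of the gene. Apobec1 itself had 3 footprints, with a sum of 0.312 in KO against 0.372 in WT, which do not check the genotype. Of 10 macrophage marker genes 7 carried a footprint, among them Csf1r, Itgam and Emr1, while Cd68, Mertk and Mrc1 carried none. None of 5 markers each of T cells, B cells, neutrophils or fibroblasts had a footprint, and of 5 for dendritic cells or osteoclasts 1, Nfatc1, had a footprint.

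Class I PI3 kinases consist of a catalytic and a regulatory subunit and add a phosphate to a membrane phosphoinositide, which makes the lipid messenger PIP3. In macrophages this follows M-CSF and other receptor signals and recruits kinases such as AKT. Phosphatases such as SHIP1 remove PIP3, while myotubularins act on phosphoinositides of endosomes, and kinases of the SGK family respond to these lipids.

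Occupancy is the signal of a footprint divided by the expression of its transcript in RNA-Seq. The authors' table gives 1 combined value per genotype, and beside it the number of libraries of each genotype in which the footprint was found. There is thus no value per library, no SD and no test between KO and WT, and every difference below lacks a replicate check. The depth of the libraries is unknown. In bulk cultures fewer cells of a type and less RNA per cell cannot be told apart. A 2-fold difference (log2 ratio of KO over WT of at least 1 in size) was used in place of a significance threshold.

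Each of the 10 footprints lay in the 3′ UTR, and 4 of them held a 7-nt match to the seed (bases 2 to 8) of at least 1 of 26 miRNA families searched on the sense strand. The matched sites are shown because they place a candidate miRNA pairing under the strongest Sgk3 footprint and under the sole Mtmr2 footprint. Capitals mark the match, including an A opposite the first miRNA base where the match has 8 nt. Footprints of a gene are numbered from the stop codon. Sites are 30 nt of the mm9 genome, read 5′ to 3′ on the strand of the gene.
Sgk3 footprint 4, miR-27 match, chr1:9890128-9890157, plus strand: tcgtccagaaaACTGTGAAattacgtgtca
Sgk3 footprint 3, miR-30 match, chr1:9889884-9889913, plus strand: gccttctataaTGTTTACctagttgtgaat
Sgk3 footprint 3, miR-181 match, chr1:9889934-9889963, plus strand: ctgggttggtgTGAATGTgtgtcacctaca
Mtmr2 footprint 1, miR-101 match, chr9:13610855-13610884, plus strand: ccatatgtaatGTACTGTAacaaacgagct
Pik3r1 footprint 3, miR-132 match, chr13:102451735-102451764, minus strand: taatgtgcatgGACTGTTtccaatacacct

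The mature miRNAs of these families, from RefSeq (GRCm38.p6), are given with the seed in capitals. No pair of these seeds is the same. In the RefSeq table the miR-27a seed was found in miR-27b, that of miR-132 in miR-212, and that of miR-30a in miR-30c, miR-30e and miR-384. That of miR-181a was found in miR-181b, miR-181c and miR-181d. This lookup may not name every mouse miRNA that carries these seeds.
mmu-miR-27a-3p: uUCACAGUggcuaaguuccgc
mmu-miR-30a-5p: uGUAAACAuccucgacuggaag
mmu-miR-181a-5p: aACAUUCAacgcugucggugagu
mmu-miR-101a-3p: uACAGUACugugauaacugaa
mmu-miR-132-3p: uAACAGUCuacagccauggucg

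A seed match of any of the 26 families was found in 21.0% of all 6270 footprints (1318). The 8-nt form, seen at Sgk3 footprint 4 and at Mtmr2, was found in 8.23%. By family, the 7-nt match was in 1.59% of all footprints for miR-27, 1.12% for miR-30, 1.18% for miR-181, 0.973% for miR-101 and 1.08% for miR-132. A match is a description of the letters and does not show which miRNA was bound.

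Over the longest annotated 3′ UTRs of Pik3r1, Inpp5d, Mtmr2 and Sgk3 there were 26 seed matches, of which 5 (19.2%) lay wholly inside a footprint. Footprints covered 732 of 9914 nt of these UTRs, or 7.38%. Most matches of the listed families in these transcripts therefore lay outside the footprints.

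**Figure D1:**
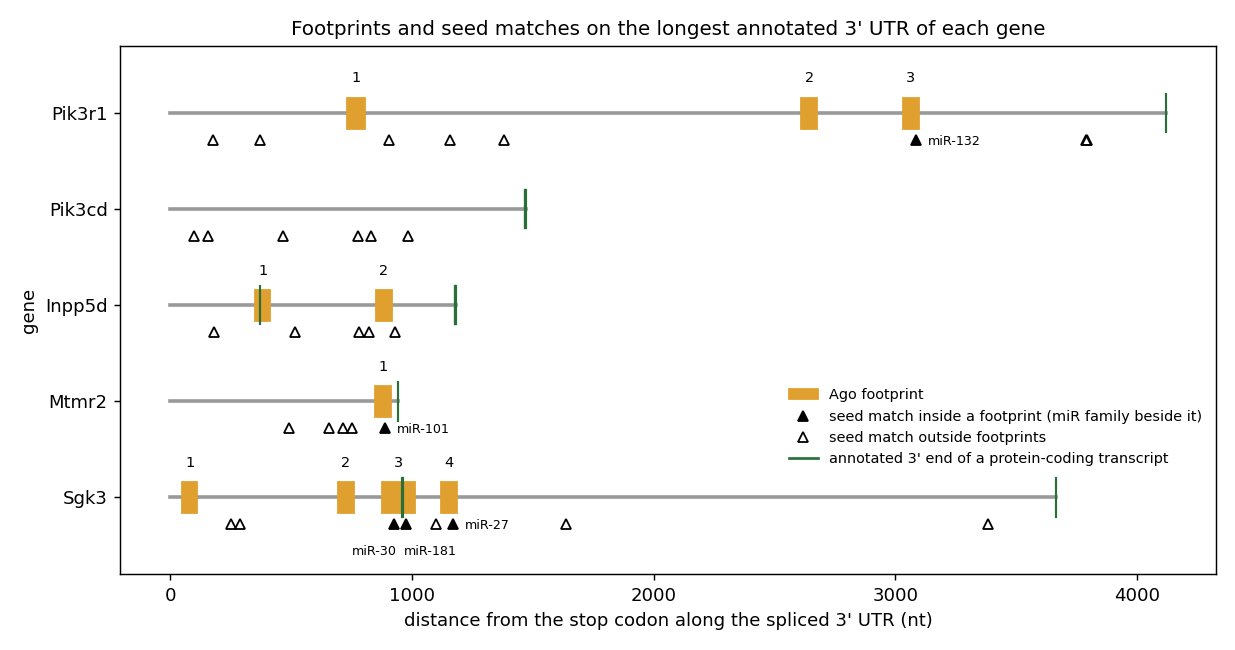
Footprints (orange, drawn to scale and numbered from the stop codon) and 7-nt seed matches of 26 miRNA families (triangles) along the longest annotated 3′ UTR of each gene, with distance from the stop codon in nt. Of the 26 matches on the 4 genes with a footprint, 5 lie inside one, and the 6 matches of Pik3cd lie on a UTR with no footprint. Annotated transcript ends in the UTR of Mtmr2 transcripts that stop at other exons are not drawn.

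By role in the pathway, the kinase subunits come first. Pik3r1 encodes the regulatory subunit p85α of class I PI3 kinase, which binds phosphotyrosine on receptors and adaptors and stabilises the catalytic subunit. Its footprints differed in direction, and their sum was close between the genotypes, 3.60 in KO and 3.25 in WT (log2 ratio 0.15). Footprint 1 (chromosome 13, 102454030 to 102454102, minus strand) had an occupancy of 2.49 in KO against 1.74 in WT (log2 ratio 0.51). It was found in 2 KO and 2 WT libraries and made up 69.1% of the gene's KO sum and 53.6% of its WT sum.

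Pik3r1 footprint 2 (102452158 to 102452223) had 0.375 in KO against 0.531 in WT (log2 ratio -0.50). Footprint 3 (102451739 to 102451804), which holds the miR-132 match, had 0.736 in KO against 0.974 in WT (log2 ratio -0.40). Both were lower in KO, and both were found in 2 WT and 0 KO libraries. The table lists KO values above 0 for them all the same, as it does for 1462 of the 1752 footprints held by no KO library, with no account of how such values arose in the sources used here. The KO value of footprint 2 was shared exactly with 5 other footprints of the table and that of footprint 3 with 2. Without these 2 footprints the log2 ratio of Pik3r1 was 0.51, an alternative chosen after seeing the data.

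The Pik3r1 footprints were spread over a 3′ UTR of 4119 nt, with centres 769, 2645 and 3064 nt after the stop codon. The centres of footprints 1 and 2 were 1876 nt apart, and those of footprints 2 and 3 were 419 nt apart. Footprints 1 and 3 each held the letters TGTANATA, the core of the motif bound by Pumilio proteins, which 3.81% of all footprints held on the sense strand. In footprint 3 the miR-132 match was centred 22 nt after the centre of the footprint. A second miR-132 match, 175 nt after the stop codon, was outside the footprints.

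Pik3cd encodes p110δ, the catalytic subunit enriched in leukocytes. Its gene (chromosome 4, 149023277 to 149076680, minus strand) carried no footprint, and no footprint of the table lay within 20 kb of it on either strand. Its 3′ UTR of 1472 nt had 6 seed matches, 3 of them for miR-22. The table lists footprints that pass a minimum of reads and of libraries, so absence from it is not absence of Ago binding.

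Inpp5d encodes SHIP1, the phosphatase of blood cells that takes a phosphate off PIP3 and limits signalling by PI3 kinase. Its occupancy was lower in KO at both footprints, with a sum of 0.297 in KO and 1.17 in WT. The log2 ratio was -1.97, the sole 2-fold difference among the 4 genes with a footprint. Footprint 1 (chromosome 1, 89616250 to 89616313, plus strand) had 0.149 in KO against 0.905 in WT (log2 ratio -2.59), and 1 KO and 3 WT libraries held it. Footprint 2 (89616752 to 89616815) had 0.148 in KO against 0.266 in WT (log2 ratio -0.84), and 1 KO and 2 WT libraries held it. The KO values of both were nearly equal, and the difference between the genotypes was mostly that of footprint 1, which made up 77.3% of the WT sum. With a pseudocount of 1, which shrinks ratios between values this low, the gene's log2 ratio was -0.74 and no longer reached 2-fold.

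The G+C content of the Inpp5d footprints was 28.1% in footprint 1 and 56.2% in footprint 2, against a median of 42.9% over the table. Footprint 1 spans the annotated 3′ end of the shorter transcript Inpp5d-003, at 89616269, and footprint 2 lies beyond that end. Their centres were 383 and 885 nt after the stop codon, in a 3′ UTR of 1184 nt. Neither held a 7-nt match to any of the 26 families, although the UTR had 5 outside them. One was an 8-nt match to miR-155, which in mouse macrophages is known to repress Inpp5d. The 7-nt seed part of this match began 100 nt after the end of footprint 1 and ended 333 nt before the start of footprint 2. The match is shown here with its miRNA because no footprint covers it.
Inpp5d, miR-155 match, chr1:89616402-89616431, plus strand: tgtttttaaaaAGCATTAAagaaaaccatc
mmu-miR-155-5p: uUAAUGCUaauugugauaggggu

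The Inpp5d matches for miR-146 and miR-22 lay nearest to a footprint, 10 and 26 nt from footprint 2.

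Mtmr2 encodes a myotubularin, a phosphatase of endosomal phosphoinositides whose loss causes a peripheral neuropathy in humans. Its transcript has been reported among those edited by APOBEC1 in mouse tissue, and editing was not measured here. Its single footprint (chromosome 9, 13610829 to 13610895, plus strand) had 1.46 in KO against 0.788 in WT (log2 ratio 0.89). It was found in 2 KO and 2 WT libraries. Occupancy was higher in KO but did not reach 2-fold. With division by the genotype median the log2 ratio was 0.9997, just short of that threshold. The WT value was shared exactly with 2 other footprints of the table.

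The Mtmr2 footprint lay at the far end of its UTR, with its centre 882 nt after the stop codon and 63 nt before the annotated end. Over the 5903 footprints that could be placed this way, the centre lay at a median of 44.1% of the UTR, with quartiles of 20.1% and 71.1%, and for Mtmr2 it lay at 93.3%. The 8-nt miR-101 match shown above was centred 7 nt after the footprint's centre. Among the 61 footprints of the table with a miR-101 match, that of Mtmr2 ranked 6 by KO occupancy and 20 by WT occupancy. The other 4 seed matches of the UTR, for miR-9, miR-15/16 and miR-142-5p, lay before the footprint.

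Sgk3 encodes a serine/threonine kinase related to AKT that is brought to endosomes by a phosphoinositide-binding domain. It had the highest occupancy of the 4 genes, with a sum of 7.00 in KO and 10.5 in WT (log2 ratio -0.58), and ranked 85 of 2222 genes by the mean of both sums. Footprint 4 (chromosome 1, 9890094 to 9890156, plus strand) had 4.59 in KO against 8.66 in WT (log2 ratio -0.92), and made up 65.5% of the KO sum and 82.5% of the WT sum. It was the sole one of the 10 footprints found in all 6 libraries, as were 5.89% of the footprints of the table. It ranked 75 by KO occupancy and 21 by WT occupancy among 6270 footprints.

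Footprint 1 of Sgk3 (9889021 to 9889084) had 0.707 in KO against 0.891 in WT (log2 ratio -0.33). Footprint 2 (9889665 to 9889733) had 1.32 in KO against 0.240 in WT (log2 ratio 2.45). Footprint 3 (9889848 to 9889983) had 0.396 in KO against 0.709 in WT (log2 ratio -0.84). Footprint 2 was thus higher in KO by more than 2-fold, while the other 3 footprints were lower in KO. Footprints 1 to 3 were each found in 1 KO and 2 WT libraries. The KO values of footprints 1 and 3 and the WT value of footprint 2 were also listed for 2, 4 and 2 other footprints. Among the 10 footprints 4 KO values and 2 WT values were shared in this way, beside 33.3% of KO values and 18.6% of WT values over the table. Footprints 1, 3 and 4 were also summed because each was lower in KO, a choice that fixed the sign of their ratio. Their summed occupancy was 5.69 in KO against 10.3 in WT (log2 ratio -0.85).

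The Sgk3 footprints were crowded into the first part of a 3′ UTR of 3666 nt, with centres 81, 728, 944 and 1154 nt after the stop codon. The last of these is 31.5% of the way along the UTR. Footprint 3 was 136 nt long, a length reached by 4.02% of all footprints, and it spans the annotated ends of the 2 shorter protein-coding transcripts, at 9889929 and 9889936. It held the polyadenylation signal AATAAA, whose last base was 5 nt before the first of these ends and 12 nt before the second. AATAAA was found in 7.00% of all footprints, and also in Sgk3 footprint 2, the one footprint of the 10 with the AU-rich letters ATTTA (11.9% of all footprints). Footprint 4 lies beyond both ends, so only the 3 transcripts with the long UTR of the 5 annotated hold it. Which transcript's expression was used as the divisor is not given. An annotated transcript end lay inside 3.61% of the footprints that could be placed on a UTR.

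The miR-27 match in Sgk3 footprint 4 was centred 17 nt after the footprint's centre. Among the 100 footprints of the table with a miR-27 match, it ranked first by WT occupancy and 2 by KO occupancy, where Jmjd1c had the highest value (5.41 in KO and 3.72 in WT). The median log2 ratio of these 100 footprints was -0.15, with quartiles of -0.97 and 0.60, and that of Sgk3 footprint 4 lay within them. The UTR also held an 8-nt miR-155 match 248 nt after the stop codon, 135 nt from the nearest footprint.

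**Figure D2:**
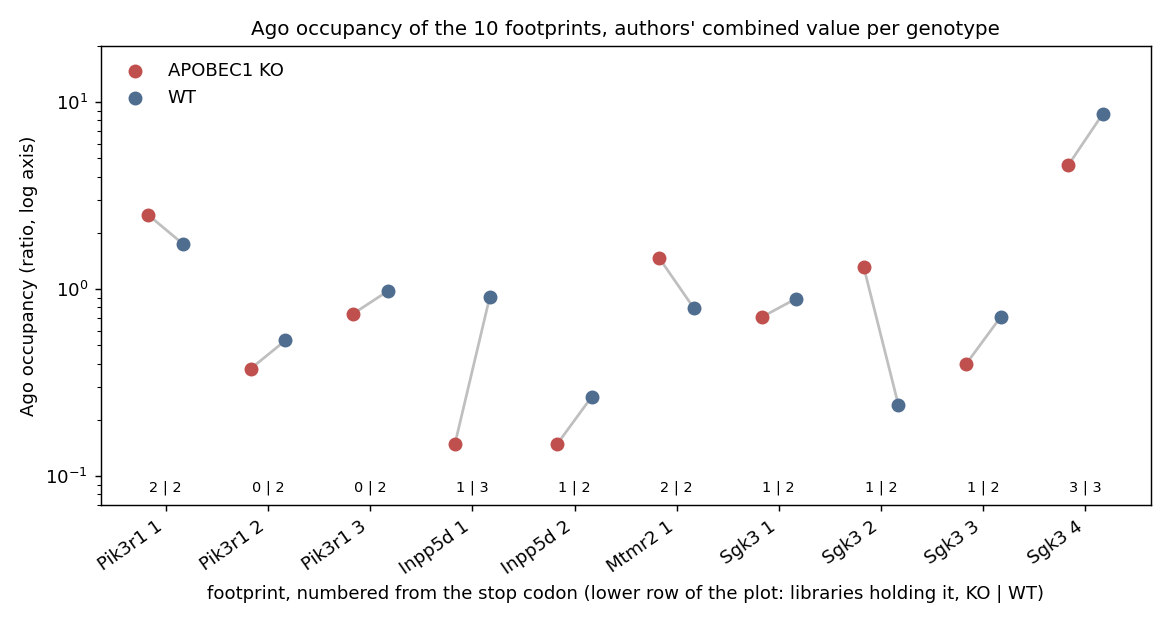
Ago occupancy (ratio, log axis) of the 10 footprints, with the authors' combined KO value in red on the left and the WT value in blue on the right, and the number of KO and WT libraries that held the footprint printed beneath. Sgk3 footprint 4 is highest, at 4.59 in KO and 8.66 in WT, and the Inpp5d footprints are lowest in KO, at 0.149 and 0.148.

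Read together, the 10 footprints did not share a direction. Occupancy was higher in KO for 3 and lower for 7, and the median log2 ratio was -0.45, against -0.04 over all footprints, of which 48.7% were higher in KO. At least 2-fold higher in KO was 1 of the 10, Sgk3 footprint 2, where 18.9% of all footprints were, and at least 2-fold lower was 1 of 10, Inpp5d footprint 1, where 24.2% were. By summed occupancy 0 of the 4 genes were 2-fold higher, against 11.7% of 2222 genes, and 1 was 2-fold lower, against 17.9%. With 10 footprints and 4 genes, these counts are too small to be told apart from the shares of the table.

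Footprints of the same gene often went different ways. In Sgk3 the log2 ratios of the 4 footprints spanned 3.36, and in the 163 genes with 4 footprints the median span was 2.83, with both directions present in 84.0% of them. In Pik3r1 the 3 footprints spanned 1.02, against a median of 2.05 in genes with 3 footprints, of which 74.8% held both directions. Inpp5d spanned 1.75 with both footprints lower in KO, and the median of genes with 2 footprints was 1.32. The footprints of a gene share its transcript and are not replicates.

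Library counts and base composition moved with the ratio in the table as a whole, and their part in the members' ratios was not tested. Of the 10 footprints, 7 qualified through their WT libraries (2 or more) and not their KO libraries (0 or 1), as did 59.9% of the table. Footprints found in 1 KO and 3 WT libraries (182 in all) had a median log2 ratio of -1.22, with quartiles of -1.79 and -0.78, and Inpp5d footprint 1, at -2.59, ranked 9 from the lowest of these. Those found in 1 KO and 2 WT libraries (1819) had a median of 0.05, with quartiles of -0.57 and 0.76, and Sgk3 footprint 2, at 2.45, ranked 7 from the highest. Of the others of this kind, Sgk3 footprint 1 (-0.33) lay within these quartiles, and Sgk3 footprint 3 and Inpp5d footprint 2 (both -0.84) lay below them. Those found in all 6 libraries (369) had a median of 0.13, with quartiles of -0.34 and 0.52, and Sgk3 footprint 4, at -0.92, ranked 25 from the lowest. Mtmr2 and Pik3r1 footprint 1 lay within the quartiles of the 1127 footprints found in 2 libraries of both genotypes, 0.08 and 1.21. The remaining Pik3r1 footprints lay within the quartiles of those found in 0 KO and 2 WT libraries, -2.31 and -0.32.

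The G+C content was below the table median of 42.9% in 9 of the 10 footprints, and the exception was Inpp5d footprint 2. Footprints within 5 percentage points of the G+C content of Inpp5d footprint 1 had a median log2 ratio of -0.70, and those near Inpp5d footprint 2 a median of 0.49. Footprints near Sgk3 footprint 2 (31.9% G+C) had a median of -0.56, near Mtmr2 (40.3%) -0.16 and near Pik3r1 footprint 1 (26.0%) -0.82, while those 3 footprints were themselves higher in KO. Near Sgk3 footprint 4 (38.1%) the median was -0.28.

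**Figure D3:**
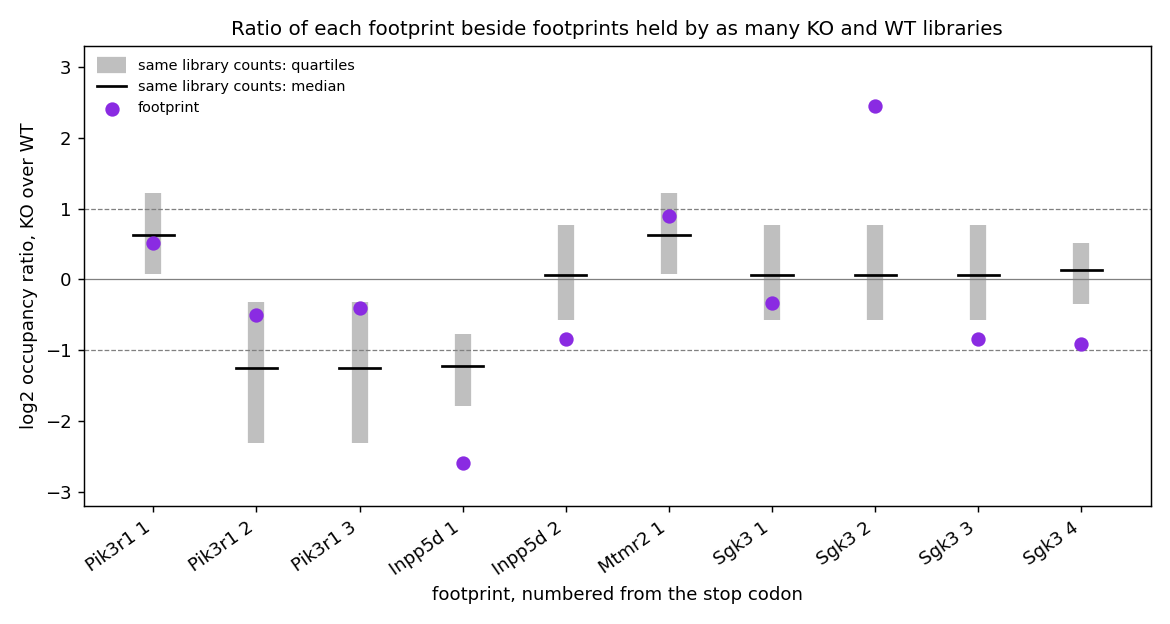
Log2 ratio of KO over WT occupancy of each of the 10 footprints (purple) beside the median (black line) and quartiles (grey bar) of all footprints found in the same number of KO and of WT libraries; dashed lines mark a 2-fold difference. Sgk3 footprint 2, at 2.45, lies above its bar. Inpp5d footprints 1 and 2, at -2.59 and -0.84, and Sgk3 footprints 3 and 4, at -0.84 and -0.92, lie below theirs, and the remaining points lie within their bars.

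The wider pathway was described with a list of 83 genes of PI3 kinases, phosphoinositide kinases and phosphatases and their downstream kinases, which includes the 5 genes above. A footprint was present on 29 of them, 81 footprints in all, and 54 had none. By summed occupancy 12 were higher and 17 lower in KO. At least 2-fold higher was 1 gene and at least 2-fold lower were 5, beside 11.7% and 17.9% of all genes. The median log2 ratio was -0.29, against -0.04 over all 2222 genes with a footprint. Among the 15 genes of the list with a footprint that 2 or more libraries of each genotype held, 3 were 2-fold higher and 1 was 2-fold lower, beside 20.8% and 3.56% of the 1096 genes treated this way. Their median was 0.45, beside 0.38 over those 1096 genes. The list's median was also above 0 without footprints held by no KO library (0.13, beside 0.25 over all genes treated so), with the strongest footprint of each gene alone (0.04 beside 0.01) and with footprints whose mean occupancy reached the table median (0.02 beside 0.06). The sign of the list's median thus turned under 4 of the 8 alternatives. Pseudocounts of 0.1 and 1 could not turn it, and 3′ UTR footprints alone left the median at -0.29. With division by the genotype median it was -0.18, beside 0.07 over all genes.

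Of the 9 class I PI3 kinase genes 5 had a footprint. Pik3cb, the broadly expressed catalytic subunit p110β, had 4.21 in KO and 2.63 in WT over 3 footprints (0.68). Pik3cg, the catalytic subunit p110γ that answers to G-protein-coupled receptors, had 0.327 in KO and 1.19 in WT (-1.86), and its 1 footprint was found in 1 KO and 3 WT libraries. Its regulatory partners Pik3r5 (0.50) and Pik3r6 (-0.07) were under 2-fold by summed occupancy. Of the Pik3r5 footprints 2 were higher and 2 lower in KO. By its strongest footprint alone Pik3r5 was 2-fold higher in KO. The same held with footprints that 2 or more libraries of each genotype held. Pik3ca had no footprint. The class II enzyme Pik3c2a had 5.08 in KO and 3.37 in WT over 4 footprints (0.59). Of the adaptors that link receptors to PI3 kinase, Gab2 had 0.815 in KO and 0.533 in WT (0.61), and Pik3ap1 had 0.0493 in KO and 0.162 in WT (-1.69).

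Among the phosphatases, Synj1, the synaptojanin gene and the sole other gene of Inpp5d's group with a footprint, had 3.68 in KO and 5.58 in WT over 7 footprints (-0.60). Of 14 myotubularin genes 6 had a footprint, 4 of them higher in KO and 2 lower, and none reached 2-fold. Mtmr2 had the highest ratio among them, and Mtmr10, a member without catalytic activity, the highest occupancy, 4.47 in KO and 5.46 in WT over 4 footprints (-0.29).

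Among phosphoinositide kinases, Pi4kb, which makes PI4P at the Golgi, was the gene of the list 2-fold higher in KO, with 1.80 in KO and 0.515 in WT (1.80). Its 1 footprint was found in 3 KO and 2 WT libraries. Of the downstream group, 7 of 22 genes had a footprint, 1 higher and 6 lower in KO. Gsk3b, a kinase that AKT inhibits, had the highest occupancy of the list, 11.3 in KO and 10.5 in WT over 11 footprints (0.11). Sgk1, the relative of Sgk3, had 0.702 in KO and 1.80 in WT (-1.36), with each of its 3 footprints lower in KO. Rheb, the GTPase that activates mTOR, had 0.290 in KO and 0.686 in WT (-1.24), with no KO library holding its footprint. The 5 genes 2-fold lower were Inpp5d, Pik3cg, Pik3ap1, Sgk1 and Rheb. The 1 footprint of Pik3ap1, like that of Pik3cg, was found in 1 KO and 3 WT libraries. Over the table such footprints had a median log2 ratio of -1.22, with quartiles of -1.79 and -0.78. Pik3ap1 lay within these quartiles and Pik3cg just below them. Rheb lay within the quartiles of footprints found in 0 KO and 2 WT libraries, -2.31 and -0.32, whose median was -1.25. A pseudocount of 1 exceeds the median occupancy of KO (0.377) and of WT (0.406), and with it neither these 5 genes nor Pi4kb reached 2-fold. Rheb and Pik3ap1 could not have been 2-fold lower with it at any KO value, so that alternative does not test whether they were. Pik3ap1 was short of 2-fold with a pseudocount of 0.1 too, and Rheb had no value once footprints held by no KO library were left out.

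**Figure D4:**
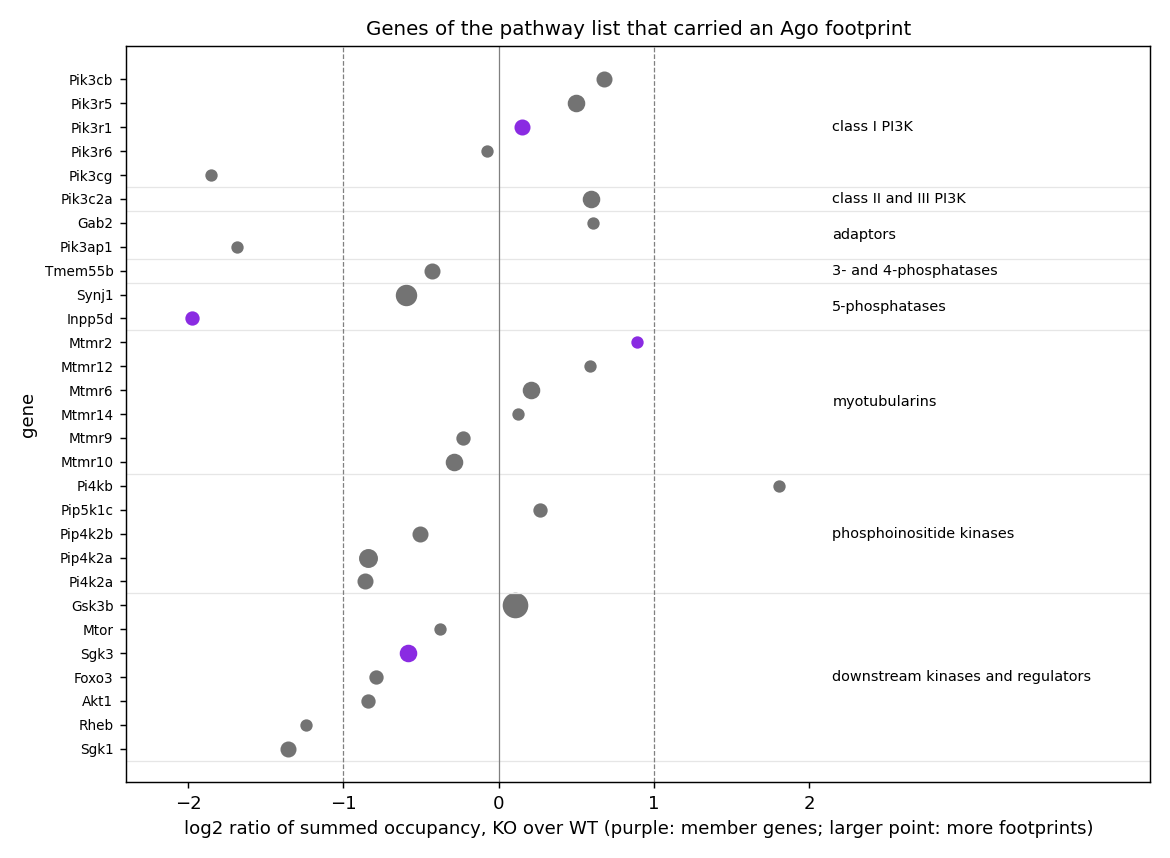
Log2 ratio of KO over WT summed Ago occupancy for the 29 genes of the pathway list that carried a footprint, grouped by role; purple marks Pik3r1, Inpp5d, Mtmr2 and Sgk3, larger points carry more footprints, and dashed lines mark a 2-fold difference. Pi4kb lies to the right of the upper line, and Inpp5d, Pik3cg, Pik3ap1, Sgk1 and Rheb lie to the left of the lower one.

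The gene nearest in both summed values was sought among genes with as many footprints, by the Euclidean distance of log2 occupancy over the 2 genotype values. For Mtmr2 it was Trim21 (1.42 in KO and 0.788 in WT, distance 0.04), for Pik3r1 Znfx1 (3.31 in KO and 3.40 in WT, distance 0.14) and for Inpp5d Ptpn12 (0.335 in KO and 1.36 in WT, distance 0.28). For Sgk3 it was Papd7 (8.23 in KO and 7.29 in WT), at a distance of 0.57, and its log2 ratio of 0.17 had the opposite sign to that of Sgk3. With 1 value per genotype, such likeness covers level and ratio only.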

How the data were processed

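Ago HITS-CLIP footprints came from 1 table with 1 row per footprint. Per the series design text, the authors aligned reads to mm9, joined overlapping reads into clusters, took a footprint around each peak, and deposited occupancy as a ratio of footprint signal to RNA-Seq expression. The submitters' processing notes name Bowtie 0.12.8 and bedtools. The combining and scaling of libraries and the unit of the divisor are not given in these sources. The deposited number of libraries per genotype runs from 0 to 3. The table has no counts, so depth is unknown.

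Footprints were placed on NCBIM37 (mm9) with GENCODE vM1 on the gene's strand, with 3′ UTR taking precedence over other exon parts and introns. Starts were converted from BED, and coordinates count from 1. Log2 ratios used a pseudocount of 0.00161 (50% of the smallest value above 0), which understates the size of ratios between low values. Gene values are sums over footprints. Tools were Python 3.11.15, pandas 2.3.3, pysam 0.24.0 and samtools 1.23.1. The ratio and its 2-fold count were tested on simulated data. Pathway genes named were the 4 highest and 4 lowest ratios and the 4 highest means, with some others, chosen after their values were seen, given by role. The members and lists were chosen with earlier results of these data known. One gene of the pathway list is not reported here.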

Additional observations from a re-analysis of the deposited data

How the results depend on the processing

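The log2 ratios of the 4 genes kept their sign under each alternative that gave a value, but several alternatives could not turn it. Pseudocounts of 0.1 and 1 were added to both values, and 3′ UTR footprints alone were all 10 footprints. Omission of footprints held by no KO library, chosen after seeing the data, altered Pik3r1 alone. The other alternatives were the strongest footprint alone, footprints that 2 or more libraries of each genotype held (none for Inpp5d), and division by the genotype median. Mtmr2 has 1 footprint, so of these only division by the genotype median could alter its ratio. For Inpp5d the ratio was -0.74 with a pseudocount of 1, which is short of 2-fold, and -2.59 by its strongest footprint. That pseudocount shrinks the ratio of Inpp5d but does not by itself keep the gene from reaching 2-fold. Of the pathway list, 1 gene was 2-fold higher and 5 were 2-fold lower in KO. The number higher was 0 of 29 with a pseudocount of 1 (1.53% of all genes treated the same way), 3 of 15 in footprints that 2 or more libraries of each genotype held (20.8%), 2 of 22 in footprints whose mean occupancy reached the table median (14.7%), and 2 of 28 without footprints held by no KO library (18.9%). The number lower was 0 of 29 with a pseudocount of 1 (2.7%) and 1 of 15 in footprints that 2 or more libraries of each genotype held (3.56%). It was 4 of 29 with a pseudocount of 0.1 (12.9%) and 4 of 28 without footprints held by no KO library (6.8%). By the strongest footprint alone 5 of 29 were higher (18.5%) and 7 lower (22.1%). Why the alternatives differed was not tested. With 8-nt matches 2 of the 10 footprints held a seed match, and with 6-nt matches 6 did, where 51.7% of all footprints had one. No paired analysis was possible because the table holds 1 combined value per genotype, and for the same reason no library could be left out. Unknown depth limits every ratio.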
